A study of Mus musculus with 6 samples.

Results

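Primordial germ cell (PGC) genes were examined in the RNA-seq counts of WT and Oct6 KO epiblast-like cells (EpiLCs). The 10 genes, out of 55416 in the count table, are Prdm1, Prdm14, Tfap2c, Nanos3, Dnd1, Kit, Dppa3, Dppa5a, Dazl and Ddx4, each found by its Ensembl identifier through the gene names of GENCODE release M39. The groups were 3 libraries of WT EpiLCs (WT replicates 1 to 3) and 3 libraries of Oct6 KO EpiLCs (KO replicates 1 to 3), with replicates of the same number described by the submitters as paired. WT cells are 46C mouse embryonic stem cells (mESCs), a reporter line with GFP at the neural gene Sox1, and KO cells are 1 clone of that line with a homozygous insertion of a nucleotide in the Oct6 coding sequence made with CRISPR/Cas9. All cells were kept in N2B27 with 2i+LIF and then differentiated for 48 h on fibronectin in N2B27 with 1% KSR, bFGF and ActivinA, whose doses the sample labels give as 12 and 20 ng/ml, whereas the series text gives the same figures in µg/ml. Because the KO group is 1 clone, an effect of genotype and a difference that belongs to the clone cannot be told apart. Library totals ran from 10995505 to 14680930 counts on genes. The epiblast markers that define the cell type were present in every library (Pou5f1, Sox2, Otx2, Fgf5, Dnmt3b, Utf1 and Pou3f1 itself), with a summed level between 2726 and 3029 CPM in WT and between 2678 and 2816 CPM in KO EpiLCs, where CPM is the count scaled to the TMM-normalized library size. Most of this sum was Dnmt3b and Pou5f1. By the test described below, Otx2 (83.4 to 157 CPM on average, WT to KO), Fgf5 (69.5 to 109) and Sox2 (123 to 165) were higher in KO EpiLCs, and the other 4 did not pass. The targeted gene, Oct6 (Pou3f1), had 142 ± 19.4 CPM (SD, n = 3) in WT and 132 ± 7.59 CPM in KO EpiLCs, and since the change in the clone is a small insertion, its counts do not check the labels.

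PGCs, the precursors of sperm and oocytes, are set aside from the epiblast in response to BMP and WNT signals, and EpiLCs are the cultured state from which PGC-like cells can be induced. Prdm1 (BLIMP1), Prdm14 and Tfap2c (AP2γ) encode the transcription factors that specify them, repressing somatic genes and restoring pluripotency genes. Nanos3 and Dnd1 encode RNA-binding proteins needed for PGC survival, Kit the receptor for stem cell factor, Dppa3 (Stella) a protein that guards DNA methylation in the egg and early embryo, and Dppa5a an RNA-binding protein shared by PGCs and pluripotent stem cells. Dazl and Ddx4 (mouse vasa homolog) encode RNA regulators that are switched on later, when germ cells settle in the gonad. Many genes of that later programme carry CpG-rich promoters that somatic cells keep methylated, and a Polycomb complex with PCGF6, MGA, MAX, E2F6 and L3MBTL2 represses them in mESCs.

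Promoter sequences are shown for Prdm1 and Kit, which passed the test below, and for both later germline genes, so that their CpG content and letters can be read beside the levels. Each is the run of 250 bases that ends at the base before the canonical transcription start of GENCODE M39, read 5′ to 3′ on the strand of the gene from GRCm39, with every CpG in capitals. The positions are chr10:44334781-44335030 (minus strand) for Prdm1, chr5:75735326-75735575 (plus) for Kit, chr17:50600665-50600914 (minus) for Dazl and chr13:112789010-112789259 (minus) for Ddx4.
Prdm1: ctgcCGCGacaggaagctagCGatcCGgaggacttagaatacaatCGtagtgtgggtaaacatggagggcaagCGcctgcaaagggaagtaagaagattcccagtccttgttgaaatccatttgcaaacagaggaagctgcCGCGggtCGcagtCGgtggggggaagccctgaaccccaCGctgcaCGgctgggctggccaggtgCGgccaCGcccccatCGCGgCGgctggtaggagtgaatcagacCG
Kit: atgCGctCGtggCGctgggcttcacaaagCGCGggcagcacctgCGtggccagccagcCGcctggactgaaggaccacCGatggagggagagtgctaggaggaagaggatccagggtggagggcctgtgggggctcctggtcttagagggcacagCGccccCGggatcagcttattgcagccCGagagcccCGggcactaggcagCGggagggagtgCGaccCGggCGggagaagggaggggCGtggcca
Dazl: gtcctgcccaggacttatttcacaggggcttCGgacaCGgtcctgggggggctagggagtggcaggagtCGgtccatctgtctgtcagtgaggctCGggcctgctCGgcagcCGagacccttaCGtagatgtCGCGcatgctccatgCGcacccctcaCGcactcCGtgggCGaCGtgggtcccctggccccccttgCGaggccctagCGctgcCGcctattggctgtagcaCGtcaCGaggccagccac
Ddx4: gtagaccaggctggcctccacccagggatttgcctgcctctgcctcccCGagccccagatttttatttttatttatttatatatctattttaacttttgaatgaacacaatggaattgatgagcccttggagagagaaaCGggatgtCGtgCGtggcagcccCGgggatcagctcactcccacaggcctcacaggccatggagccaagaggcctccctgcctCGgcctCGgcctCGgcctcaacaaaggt

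These windows hold 18 CpGs in Prdm1, 17 in Kit, 19 in Dazl and 8 in Ddx4. The observed over expected CpG ratio was 0.805, 0.598, 0.681 and 0.443 in the same order, against a median of 0.474 over the 21614 protein-coding promoters read in the same way. Among other members it was 0.364 for Tfap2c, 0.151 for Nanos3, 0.570 for Dnd1, 0.384 for Dppa3 and 0.390 for Dppa5a. The letters of the octamer bound by POU factors, ATGCAAAT on either strand, were in none of the members' windows described here and in 1.5% of all promoters. The E-box CACGTG, which MGA and MAX bind and which reads the same on both strands, was also in none, and in 6.29% of all promoters. The E2F letters TCCCGC on either strand were in 18.4% of all promoters and, among these windows, in Kit alone, where the matches began 46 and 25 bases before the start. The matches in Kit do not overlap each other. An absent match says only that these letters are not in these 250 bases.

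The members covered a wide range of levels, and a later germline gene stood second among them. Per kilobase of exon, which is needed to compare genes, Dppa5a had 409 ± 70.8 CPM per kb (SD, n = 3) in WT EpiLCs, far above the rest. Dazl followed with 10.7 ± 2.72 CPM per kb, then Dnd1 with 5.57 ± 0.487, Ddx4 with 4.02 ± 1.03 and Dppa3 with 3.50 ± 0.844. The specification factors were low, at 1.18 ± 0.123 CPM per kb for Prdm1, 1.00 ± 0.262 for Tfap2c and 0.101 ± 0.0762 for Prdm14, with Kit at 1.18 ± 0.394 and Nanos3 at 0.826 ± 0.236. The libraries of neighbours in this WT order overlapped from Dnd1 to Dppa3 and from Prdm1 to Nanos3, so that the order within these runs is not resolved. In KO EpiLCs Dppa5a (376 ± 46.0 CPM per kb), Dazl (12.9 ± 0.857) and Dnd1 (5.50 ± 0.810) held the same first ranks and Prdm14 (0.628 ± 0.277) again the last, where its libraries now overlapped those of Tfap2c. Ddx4 (3.19 ± 0.200) came below Dppa3 (4.43 ± 0.723) in KO EpiLCs, with no overlap between their libraries.

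**Figure D1:**
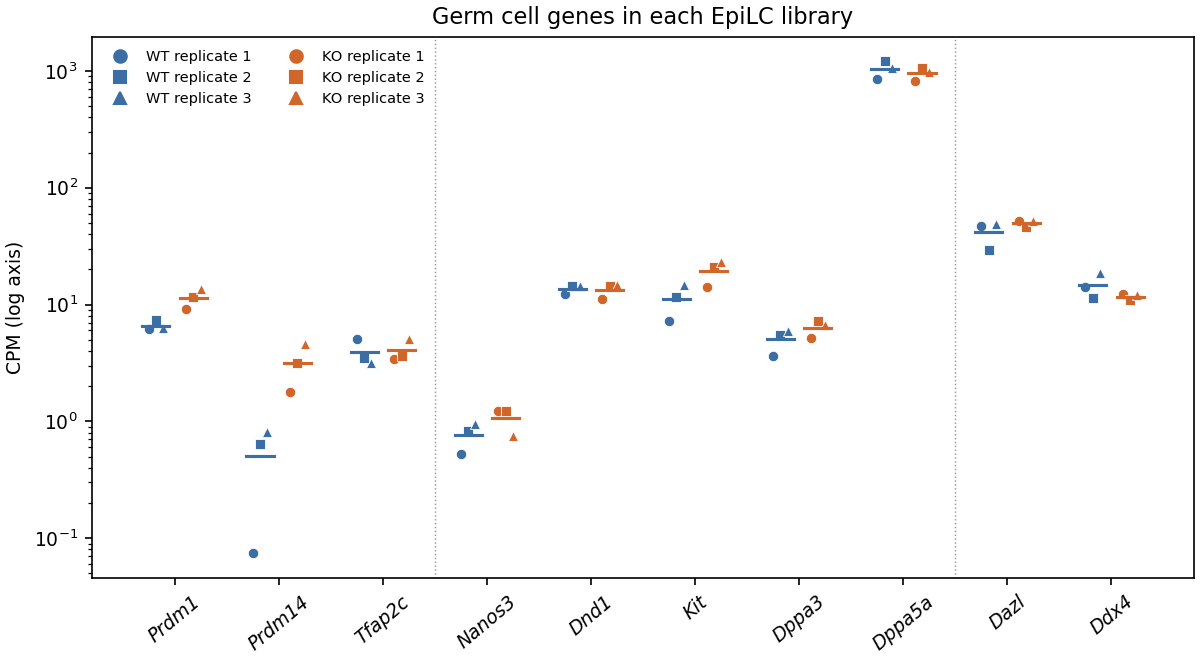
CPM on a log axis of the 10 germ cell genes in each of the 6 libraries, WT in blue and KO in orange, with a marker shape per replicate number and a line at the mean of 3 libraries. Dotted lines part the specification factors, the early germ cell factors and the later germline genes, and the WT and KO libraries stand apart only for Prdm1 and Prdm14.

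Fold changes are given as log2FC, KO over WT, with the standard error (SE) and the adjusted p of edgeR's quasi-likelihood test, corrected by Benjamini and Hochberg over 15746 genes. All 10 genes passed the filter on low counts, but Prdm14 only through its KO libraries. At an adjusted p below 0.1, 3 of the 10 rose in KO EpiLCs (Prdm14, Prdm1 and Kit), where 24.3% of all genes tested passed in either direction and 11.8% were higher. No member passed as lower in edgeR, where 12.5% of all genes were lower, with 0 at an unadjusted p below 0.05 and 0 by DESeq2, which called 11.4% of all genes lower. DESeq2 called the same number of members higher, 3, beside 10.9% of all genes. A gene that is tested only through the group where it is high had to differ, so that Prdm14 adds nothing to these counts. Without it, 2 of the other 9 rose and 0 fell, with a median log2FC of 0.26 beside 0.0014 over all genes tested. These counts are given as a description.

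Prdm14, which represses somatic genes and DNA methylation in PGCs and is also part of the naïve pluripotency network, had the largest difference among the members. Its gene (ENSMUSG00000042414.8, chromosome 1 of GRCm39, 13183405 to 13198351, minus strand) had counts of 1, 7 and 12 in the WT and 22, 41 and 61 in the KO libraries, in replicate order. The KO libraries all lay above the WT libraries, as for 16.6% of all genes tested, and the lowest was WT replicate 1, where 1 count allows a 95% Poisson range of 0.0253 to 5.57 counts. The CPM ratio of KO over WT was 23.9 in pair 1, 4.95 in pair 2 and 5.65 in pair 3. The fitted log2FC was 2.62 ± 0.51 (SE), and 2.10 without WT replicate 1. Since Prdm14 was tested only through its KO libraries, both values are given as a description. Its nearest tested protein-coding neighbours did not pass, the log2FC of Slco5a1 being −0.50 (edgeR adjusted p = 0.102) and that of Ncoa2, 11 kb away, 0.17 (edgeR adjusted p = 0.375).

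Prdm1, the repressor whose expression marks the first PGC precursors, rose by less. It (ENSMUSG00000038151.14, chromosome 10, 44313171 to 44404497, minus strand) had CPM values of 6.12, 7.39 and 6.29 in the WT and 9.16, 11.5 and 13.6 in the KO libraries, in replicate order. The groups did not overlap, and KO replicate 3, which was also the highest library for Prdm14, was the highest. The summed level of 6 naïve markers was likewise highest in that library, at 374 CPM against 298 and 299.6 CPM in KO replicates 1 and 2, and its part in these differences was not tested. The log2FC was 0.80 ± 0.19 (SE, edgeR adjusted p = 0.0061), and 47 genes tested within 5 Mb of Prdm1 had a median of 0.14.

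Tfap2c, the third specification factor, did not pass the test. It (ENSMUSG00000028640.12, chromosome 2, 172391321 to 172400542, plus strand) had CPM values of 5.07, 3.47 and 3.18 in the WT and 3.40, 3.63 and 5.11 in the KO libraries, in replicate order. The groups overlapped, with KO below WT in pair 1 and above it in pairs 2 and 3. Its log2FC was 0.052 ± 0.27 (SE, edgeR adjusted p = 0.927), and it was −0.15 without KO replicate 3.

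Among the early germ cell factors, Kit rose in KO EpiLCs together with Kitl, the gene of its ligand. Kit (ENSMUSG00000005672.13, chromosome 5, 75735576 to 75817404, plus strand) had CPM values of 7.24, 11.5 and 14.7 in the WT and 14.1, 20.8 and 23.2 in the KO libraries, in replicate order. WT replicate 3 lay above KO replicate 1, so that the groups overlapped, yet within pairs the KO library was 1.95, 1.81 and 1.58 times the WT library. Higher KO levels in all 3 pairs were found for 25.9% of the genes tested. The log2FC of Kit was 0.80 ± 0.22 (SE, edgeR adjusted p = 0.014), and in a fit that blocked on the replicate number it was 0.81 ± 0.14 (SE, blocked edgeR adjusted p = 8.4e-05). Kitl, on chromosome 10, had CPM values of 2.02, 3.01 and 2.77 in the WT and 11.4, 6.40 and 7.22 in the KO libraries, with no overlap and KO replicate 1 the highest. Its log2FC was 1.68 ± 0.26 (SE, edgeR adjusted p = 1.5e-04).

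The remaining early factors did not pass. Nanos3 (ENSMUSG00000056155.7, chromosome 8, 84900360 to 84911846, minus strand) was near the lower limit of the counts, with counts of 7, 9 and 14 in the WT and 15, 16 and 10 in the KO libraries. Its log2FC was 0.47 ± 0.45 (SE, edgeR adjusted p = 0.532), and the groups overlapped. Dnd1 (ENSMUSG00000044595.11, chromosome 18, 36896722 to 36899297, minus strand) had CPM values of 12.2, 14.3 and 14.3 in the WT and 11.2, 14.3 and 14.8 in the KO libraries, with log2FC −0.015 ± 0.16 (SE, edgeR adjusted p = 0.965). Dnd1 overlaps Wdr55 on the opposite strand, which had 8372 counts in all and rose (log2FC 0.35 ± 0.10 SE, edgeR adjusted p = 0.019). If counting ignored the strand, which the study does not state, reads from the shared part could not be told apart.

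Dppa3 (ENSMUSG00000046323.9, chromosome 6, 122586548 to 122607237, plus strand) had CPM values of 3.66, 5.48 and 5.95 in the WT and 5.19, 7.17 and 6.69 in the KO libraries. It was higher in KO in all 3 pairs, the groups overlapped, and the log2FC of 0.34 ± 0.23 (SE, edgeR adjusted p = 0.362) did not pass. Dppa3 lies among genes that passed: Nanog, 72.5 kb away, and Apobec1, 6.48 kb away on the other side, were higher in KO EpiLCs, the latter with log2FC 0.39 ± 0.13 (SE, edgeR adjusted p = 0.034, and 0.107 without KO replicate 1). Gdf3, which overlaps the annotated Dppa3 locus on the opposite strand, had a log2FC of −0.20 (edgeR adjusted p = 0.179). Chromosome 6 as a whole had a median log2FC of −0.40, but the 100 genes tested within 5 Mb of Dppa3 had −0.071.

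Dppa5a (ENSMUSG00000060461.6, chromosome 9, 78274031 to 78278208, minus strand), the most abundant member, had CPM values of 850.2, 1208 and 1054 in the WT and 824, 1052 and 979.8 in the KO libraries. KO was below WT in each pair, as for 26.2% of all genes, while the groups overlapped. Its log2FC was −0.12 ± 0.12 (SE, edgeR adjusted p = 0.544).

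The later germline genes Dazl and Ddx4 were expressed in every library of both genotypes and did not pass. Dazl (ENSMUSG00000010592.10, chromosome 17, 50586366 to 50600664, minus strand) had CPM values of 46.9, 29.5 and 48.5 in the WT and 51.9, 46.4 and 52.4 in the KO libraries, in replicate order. WT replicate 2 was the lowest library and the groups overlapped, with KO higher in all 3 pairs. The log2FC was 0.26 ± 0.15 (SE, edgeR adjusted p = 0.246). Blocked on the replicate number it was 0.29 ± 0.11 (SE, blocked edgeR adjusted p = 0.058), which passed the threshold in a fit where 15% of all genes passed as higher, and without WT replicate 2 it was 0.067 (edgeR adjusted p = 0.784).

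Ddx4 (ENSMUSG00000021758.15, chromosome 13, 112734867 to 112789009, minus strand) had CPM values of 14.2, 11.3 and 18.8 in the WT and 12.2, 10.9 and 12.0 in the KO libraries, lower in KO in all 3 pairs. The KO libraries lay close together and WT replicate 3 was the highest. Its log2FC was −0.34 ± 0.18 (SE, edgeR adjusted p = 0.218), and it passed as lower only without WT replicate 2 (−0.50, edgeR adjusted p = 0.069), a fit in which 10.6% of all genes were lower. Il6st, the nearest tested gene on one side, rose (log2FC 0.54 ± 0.13 SE, edgeR adjusted p = 0.0072).

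Set side by side per kilobase, the summed level of the 3 specification factors was 2.41, 2.33 and 2.10 CPM per kb in the WT and 2.86, 3.60 and 4.65 in the KO libraries, every KO library being above every WT library. That sum includes Prdm14, which had to differ, and Tfap2c, whose groups overlapped, so the separation is not a trait of all 3 factors. The sum of Dazl and Ddx4 was 16.0, 10.7 and 17.6 CPM per kb in the WT and 16.7, 14.9 and 16.8 in the KO libraries, so that these groups overlapped. In all 6 libraries the later genes were thus above the specification factors. These sums were not tested, since the grouping of the members was made with results of these data known.

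**Figure D2:**
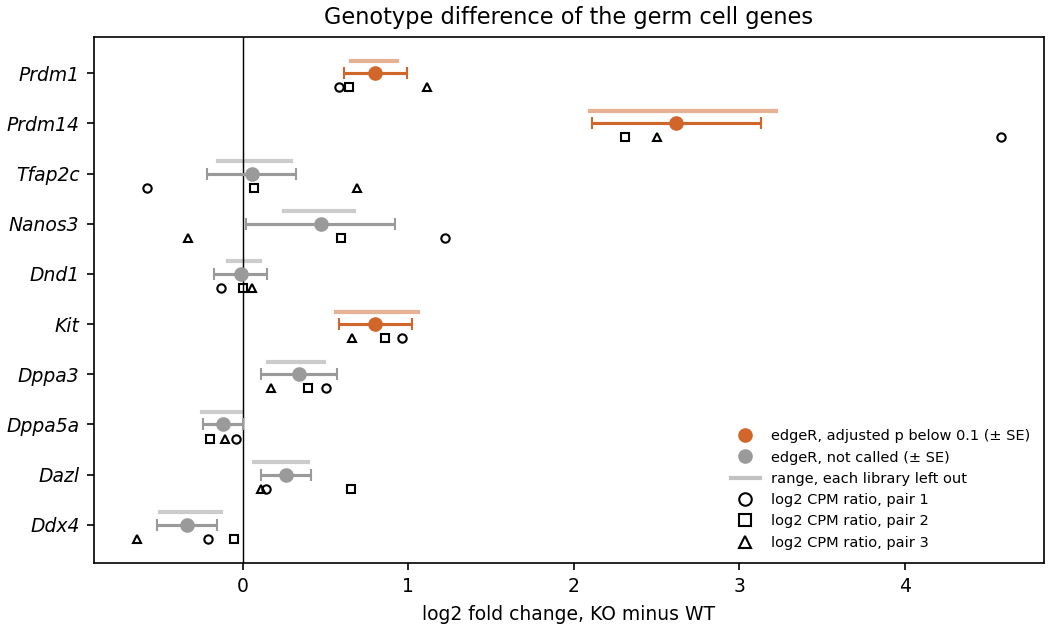
Log2FC, KO minus WT, of the 10 genes from edgeR with its standard error (filled circles, orange where the adjusted p was below 0.1), the range when each library is left out in turn (bars above) and the log2 CPM ratio within each replicate pair (open symbols below). Prdm14, Prdm1 and Kit lie above 0 in the fit, in all 3 pairs and over the whole range, whereas the ranges of Tfap2c and Dnd1 cross 0. Prdm14 was tested only through its KO libraries and so had to differ.

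The signals and factors that make the epiblast competent for PGC induction had a median log2FC of −0.043. Of 16 genes, 14 were tested, 4 were higher and 1 was lower, a share of 35.7% called beside 24.3% of all genes tested (11.8% higher and 12.5% lower). With the replicate block 4 were higher and 2 lower, the addition being Pou5f1, in a fit that called 15% of all genes higher and 15.3% lower. Nanog, Otx2 (a transcription factor that holds back PGC entry), Sox2 and Acvr1 (a type I BMP receptor, ALK2) rose and Smad4 (the shared partner of BMP and Activin SMADs) fell. Acvr1 had 5.67 ± 0.260 CPM (SD, n = 3) in WT and 8.56 ± 0.805 CPM in KO EpiLCs, with log2FC 0.59 ± 0.19 (SE, edgeR adjusted p = 0.035, and 0.122 without KO replicate 1). Sox2 had log2FC 0.42 ± 0.13 (SE, edgeR adjusted p = 0.028), and no longer passed without WT replicate 1 or without KO replicate 3 (0.27). Smad4 had −0.26 ± 0.10 (SE, edgeR adjusted p = 0.076), and it no longer passed in 4 of the 6 fits that left out a library. Bmp4, the ligand that starts PGC specification, had CPM values of 5.60, 3.01 and 3.79 in the WT and 3.65, 2.93 and 3.54 in the KO libraries, and did not pass. Bmp8b (log2FC −0.60, edgeR adjusted p = 0.211) and Wnt3 (0.061, 0.949) did not pass either. T (brachyury), an early WNT target in this step, had too few counts to be tested, between 0.271 and 0.448 CPM in WT and between 0.0810 and 0.301 CPM in KO libraries.

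Of 22 other genes of early PGCs, 21 were tested, 5 were higher and 3 were lower, a share of 38.1% called beside 24.3% of all genes (11.8% higher and 12.5% lower), with a median log2FC of −0.11. With the replicate block 6 were higher and 6 lower. Besides Kitl, the higher ones were Dppa2, Dppa4, Tcl1 (a coactivator of AKT) and Tet1 (an enzyme that oxidizes methylated cytosine). Tet1 had 266 ± 42.0 CPM (SD, n = 3) in WT and 356 ± 41.8 CPM in KO EpiLCs, with log2FC 0.42 ± 0.12 (SE, edgeR adjusted p = 0.017). Dppa4, with a log2FC of 0.80, lies on chromosome 16, where genes within 5 Mb of it had a median of 0.67. The lower ones were the X-linked homeobox genes Rhox5 and Rhox6 and the chemokine gene Cxcl12, which guides PGC migration through CXCR4. Rhox5 fell from 445 ± 41.4 to 254 ± 5.48 CPM, with log2FC −0.81 ± 0.10 (SE, edgeR adjusted p = 1.3e-05). Rhox6 fell from 19.9 ± 1.23 to 10.1 ± 2.18 CPM and Cxcl12 from 13.1 ± 0.847 to 7.40 ± 1.99 CPM, with log2FC values of −0.98 and −0.82. Tcl1 no longer passed without KO replicate 2 (log2FC 0.65, edgeR adjusted p = 0.172). The surface markers of early PGCs Alpl and Fut4 did not pass. Ifitm3, a membrane protein of early PGCs (log2FC −0.46, edgeR adjusted p = 0.138), and Lin28a, an RNA-binding protein (−0.20, edgeR adjusted p = 0.179), passed as lower only under some alternatives, among them the replicate block (−0.43 and −0.19, blocked edgeR adjusted p = 0.0071 and 0.077).

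Beyond Dazl and Ddx4, the later germline programme changed in both directions. A list of 55 genes of germ cell development, meiosis and the piRNA pathway had 53 with a count and 45 that were tested, of which 7 rose, 15 fell and 23 did not pass, a share of 48.9% called against 24.3% of all genes tested. Their median log2FC was −0.32 against 0.0014 over all genes. With the replicate block 7 were higher and 17 lower. These counts include genes that passed the filter on low counts only through the group where they are high, and so had to differ. With at least 10 counts required in every library, 6 were higher and 12 lower, where 3493 of 13878 genes were called. Boll, Stra8, Tex12 and Tex101 could not be tested in that setting. The libraries of the genotypes stood apart for 5 of the 7 and 13 of the 15. Over all genes tested this held for 16.6% (KO above) and 17.1% (KO below). Genes called on these same libraries stand apart more often by their selection, so these counts are a description and no further support. Of the 7 and the 15, 4 and 11 passed in every alternative in which they were tested. Rpl10l (a testis ribosomal protein) rose from 54.4 ± 6.61 CPM (SD, n = 3) to 132 ± 6.80 CPM, with log2FC 1.27 ± 0.11 (SE, edgeR adjusted p = 2.6e-07). Rnf17, a tudor domain gene of the spermatid, rose from 89.3 ± 15.9 to 201 ± 6.58 CPM, with log2FC 1.17 ± 0.11 (SE, edgeR adjusted p = 1.3e-06). Boll, a relative of Dazl, had 0.832 ± 0.289 and 1.94 ± 0.287 CPM. It passed the filter on low counts only through its KO libraries, and its log2FC of 1.23 is given as a description. Its call was lost without WT replicate 1 or without KO replicate 3.

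Meiotic genes were among those that fell. Sycp3, which builds the axis of the synaptonemal complex, had CPM values of 18.9, 20.1 and 27.0 in the WT and 10.1, 9.72 and 11.1 in the KO libraries, with log2FC −1.10 ± 0.16 (SE, edgeR adjusted p = 1.0e-04). Stra8, the gatekeeper of meiotic entry, had 2.40 ± 0.990 CPM in WT and 0.653 ± 0.297 CPM in KO EpiLCs. It passed the filter on low counts only through its WT libraries and so had to differ. Its fitted log2FC of −1.88 ± 0.44 (SE) is given as a description. Asz1, a mitochondrial membrane protein of the piRNA pathway, fell from 9.88 ± 1.44 to 3.38 ± 0.778 CPM, with log2FC −1.55 ± 0.22 (SE, edgeR adjusted p = 7.0e-05). Stra8 and Asz1 lie on chromosome 6 in regions whose genes within 5 Mb had medians of −0.52 and −0.67. Tex12 and Tex101 were lower as well, at 2.02 ± 0.748 and 1.93 ± 1.28 CPM in WT, with log2FC values of −1.13 and −1.39. Their calls were lost when a single library was left out, among them WT replicate 1. Both had too few counts to be tested when at least 10 were required in every library, so their values are given as a description. Chosen after their values were seen, Rec8, the meiotic cohesin, had a log2FC of −1.09, and the piRNA pathway genes Piwil2, Mov10l1 and Gpat2 had −0.74, −0.74 and −0.62 (adjusted p = 1.3e-04, 0.0012, 0.0069 and 0.0017 in this order, from edgeR). Mael, Tdrd12 and Hormad1 did not pass, with log2FC values of −0.016, −0.060 and 0.21.

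**Figure D3:**
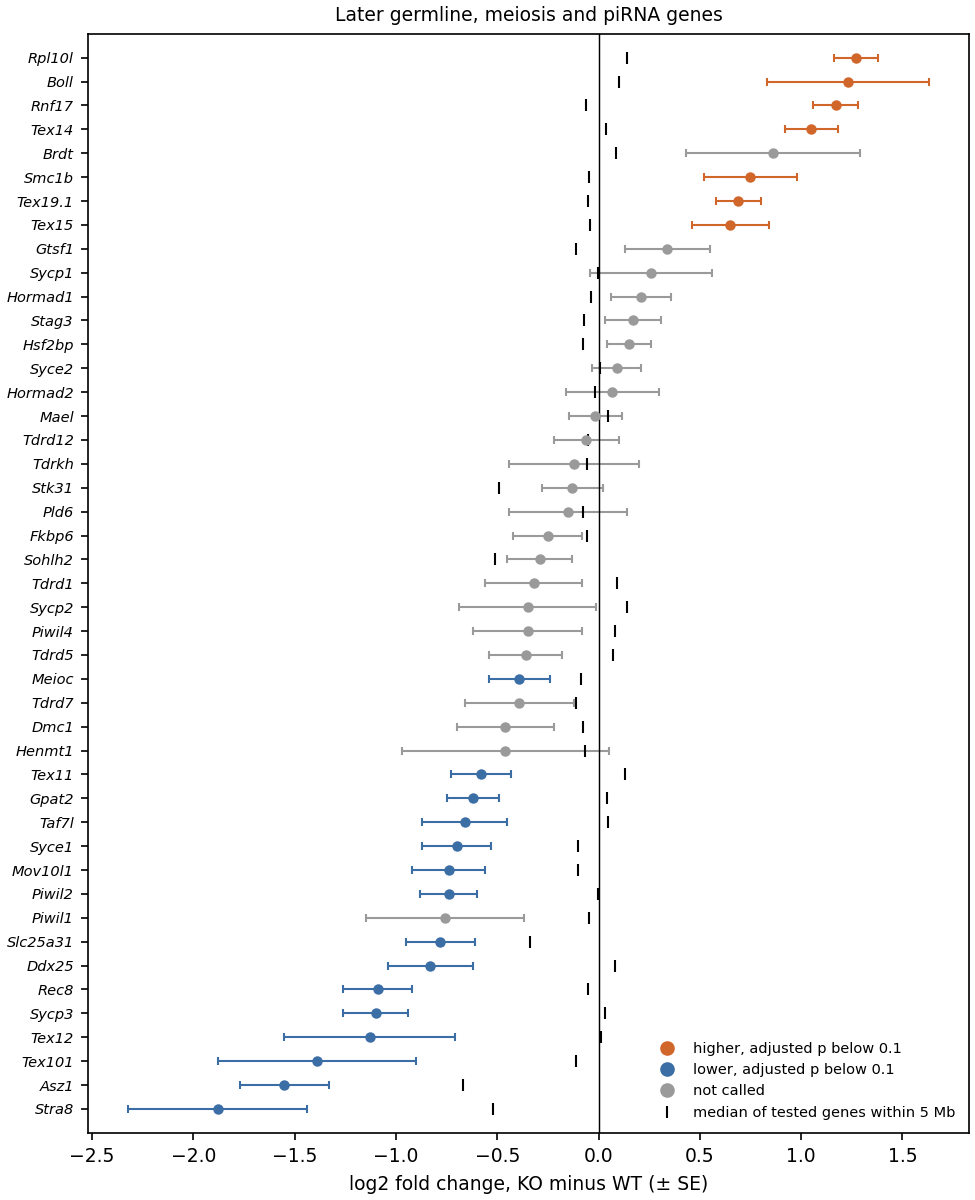
Log2FC, KO minus WT, with its standard error for the 45 tested genes of the later germline list, in order of size, in orange where higher, blue where lower at an adjusted p below 0.1 and grey otherwise. Black ticks give the median log2FC of other genes tested within 5 Mb, which is near 0 for most and −0.67 for Asz1, and 7 genes are orange and 15 blue.

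In the promoters of this list, the E-box CACGTG was present in 16 of 54 windows read, against 6.29% of all promoters. Of the 13 genes with an E-box that were tested, 0 were higher and 4 lower (Mov10l1, Sycp3, Tex12 and Slc25a31), with a median log2FC of −0.25. Of the 32 tested without it, 7 were higher and 11 lower, with a median of −0.35. The E2F letters TCCCGC were in 15 of the 54 windows, against 18.4% of all promoters. Of the 13 tested genes with them, 4 were higher and 5 lower, with a median log2FC of −0.02. Of the 32 tested without them, 3 were higher and 10 lower, with a median of −0.33. The octamer was in none of the windows of this list. Over all genes tested 11.8% were higher and 12.5% lower. The counts by motif include genes that passed the filter on low counts only through the group where they are high. The differences between these groups were not tested.

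Of 27 genes that silence the germline programme, all tested, 3 rose, 3 fell and 21 did not pass, with a median log2FC of 0.022. The share called, 22.2%, was near that of all genes, 24.3% (11.8% higher and 12.5% lower), and is no result about the list. With the replicate block 5 were higher and 4 lower. L3mbtl2, of the PCGF6 complex, rose from 225 ± 10 to 296 ± 19.9 CPM (SD, n = 3), with log2FC 0.39 ± 0.10 (SE, edgeR adjusted p = 0.0059). E2f6, of the same complex, fell from 49.0 ± 1.42 to 37.2 ± 0.608 CPM, with log2FC −0.40 ± 0.11 (SE, edgeR adjusted p = 0.012), in a region of chromosome 12 whose genes within 5 Mb had a median of 0.42. Rybp and Cbx3 fell with log2FC values of −0.44 and −0.46, and lie in parts of chromosome 6 whose genes within 5 Mb had medians of −0.44 and −0.51. Max (0.33, edgeR adjusted p = 0.065) and Dnmt1 (0.23, edgeR adjusted p = 0.095) passed narrowly. Dnmt1 passed in none of the 6 fits that left out a library, and Max not in those without WT replicate 2, WT replicate 3 or KO replicate 1. Mga, Pcgf6 and Setdb1 did not pass. The de novo methyltransferases Dnmt3a (log2FC 0.22, edgeR adjusted p = 0.129) and Dnmt3b (−0.19, edgeR adjusted p = 0.206) did not pass without the block, but did with it (0.23 and −0.19, blocked edgeR adjusted p = 0.039 and 0.055).

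**Figure D4:**
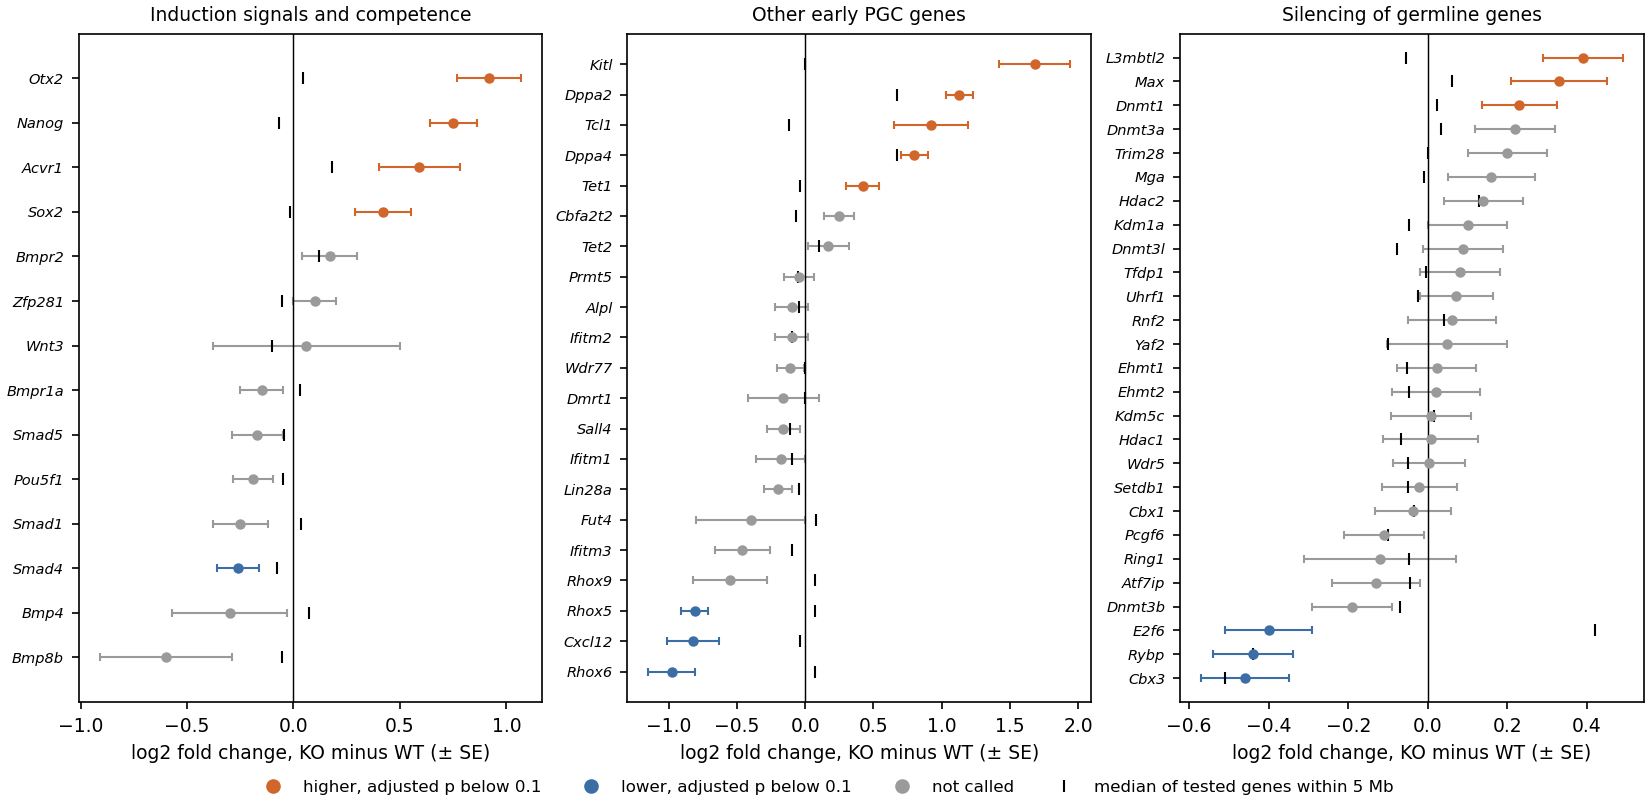
Log2FC, KO minus WT, with its standard error for tested genes of the lists of induction signals and competence (14), other early PGC genes (21) and silencing of germline genes (27), coloured as in the plot of the later germline list, with black ticks at the median of other genes tested within 5 Mb. Kitl is the highest early gene, and Rybp and Cbx3 lie near their local medians.

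Markers of other cell types moved with some of these results, and their part in them was not tested. In bulk libraries, fewer cells of a type and less RNA per cell cannot be told apart. The 6 naïve markers summed to between 205 and 217 CPM in WT and between 298 and 374 CPM in KO EpiLCs, with the highest sum in KO replicate 3, the library that was also highest for Prdm14, Prdm1 and Kit. The rise was carried by Zfp42, Nanog and Esrrb, while Klf4, Tfcp2l1 and Tbx3 did not pass (log2FC 0.46, 0.10 and −0.12). Of the 9 markers of primitive and visceral endoderm, where Prdm1 is also expressed, 8 had a count and their sum ran from 6.84 to 9.18 CPM in WT and from 6.63 to 18.6 CPM in KO, Ttr being at 0. Gata6 among them rose from 1.39 ± 0.328 to 3.51 ± 1.48 CPM (SD, n = 3), a log2FC of 1.35 (edgeR adjusted p = 0.012, and 0.113 without KO replicate 3). Of the 4 tested, Pdgfra also passed as higher, and Sox17 and Dab2 did not pass. Afp, too low to be tested, went the other way, from 0.649 CPM in WT to 0.0797 CPM in KO EpiLCs on average. The 5 markers of mesendoderm and primitive streak summed to between 6.16 and 6.49 CPM in WT and between 8.79 and 11.8 CPM in KO, nearly all of it Eomes, with T, Mixl1, Mesp1 and Gsc at 0.548 CPM or less in every library. The 7 markers of trophoblast, where Tfap2c is also expressed, summed to between 85.5 and 100 CPM in WT and between 37.5 and 49.4 CPM in KO, carried by Krt8 and Krt7, while Cdx2, Elf5, Gata3, Tfap2a and Hand1 were at 0.522 CPM or less in every library. Of the 6 haematopoietic and mast cell markers, where Kit is also expressed, 5 had a count and their sum ran from 3.10 to 6.02 CPM in WT and from 4.81 to 6.17 CPM in KO, with Cpa3 at 0. Tal1 among them had 1.04 ± 0.311 CPM in WT and 2.45 ± 0.652 CPM in KO EpiLCs (log2FC 1.20 ± 0.37 SE, edgeR adjusted p = 0.029). The call was lost without WT replicate 2 and without KO replicate 2 (adjusted p of up to 0.141 from edgeR). Its counts were 14, 8 and 20 in the WT and 22, 40 and 33 in the KO libraries. All KO libraries but not all WT libraries thus met the filter on low counts, so the values of Tal1 are given as a description. Mitf, the only other one tested, did not pass (log2FC −0.38). The 2-cell-like list of 7 genes had 6 with a count, and its sum ran from 29.8 to 62.8 CPM in WT and from 31.9 to 131 CPM in KO, highest in KO replicate 1, the library that was also highest for Kitl. Of the 6 tested, 3 were higher and 1 was lower (Tcstv3, log2FC −1.04), beside 11.8% and 12.5% of all genes tested. None of these calls held under DESeq2.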

How the data were processed

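Total RNA of 3 WT and 3 Oct6 KO EpiLC cultures was sequenced after ribosomal depletion with a stranded kit. The authors trimmed reads (Fastp), aligned them to GRCm39 (STAR, 2-pass) and let STAR count them. The deposited file holds raw counts, 1 library in each column. Tool versions, annotation release, strand setting and handling of multi-mapping reads are not given in the sources used here. GENCODE M39 named 54749 identifiers and lacked 667, which held 0.0602% of counts. Dppa3 and Dnd1 each have 1 annotated pseudogene that may share their reads.

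Genotype was tested with edgeR 4.0.16 (R 4.3.3) by TMM, filterByExpr (minimum count 10) and the quasi-likelihood F test, adjusted over 15746 genes and called below 0.1, the threshold of the study. SEs were computed from F. CPM per kb divides by the union of annotated exons. The scripts were tested on simulated data. Totals of 10995505 to 14680930 counts and 3 libraries per group limit the precision, and the Poisson range covers counting error only. P-values measure the spread between cultures of 1 line and 1 clone.

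Same-numbered libraries deviated together over 13078 genes (r = 0.257, 0.298 and 0.122, other pairs −0.233 to −0.0379). Deviations were taken from the mean of each group, so the negative values of other pairs follow in part from the positive ones. The submitters call the replicates paired, so the fit with a replicate block is given where it changes a call of a gene named or the count of a list. Other alternatives were DESeq2 1.42.0, RLE factors, library totals, no filter, a minimum of 10 counts per library, a threshold of 0.05 and the omission of each library. Members, lists and their grouping were chosen with earlier results of these data known. Genes named are the members, up to 8 called genes per list by absolute log2FC and the nearest tested neighbours. Other names are examples chosen after their values were seen. Gcna and Tcstv1 could not be matched and were not analysed here. The promoter window of 1 member is not reported here.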

Additional observations from a re-analysis of the deposited data

How the results depend on the processing

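Prdm1 and Kit passed as higher in every alternative. When 1 library was omitted, log2FC ran from 0.65 to 0.93 for Prdm1 and from 0.56 to 1.06 for Kit. Prdm14 also passed wherever it was tested, which excludes the setting with at least 10 counts in every library. Its log2FC ran from 2.10 to 3.22 when 1 library was omitted. Since Prdm14 was tested only through its KO libraries and so had to differ, its calls and range are a description and no further support. The count of members called lower ran from 0 to 1 over these 6 fits, the 1 being Ddx4 without WT replicate 2. The direction was not stable for Tfap2c, from −0.15 to 0.29, nor for Dnd1, from −0.09 to 0.10, neither of which passed in any fit, and the cause was not tested. The replicate block raised the genes called from 3833 to 4764 and added Dazl to the members called, and it changed no other call among the members. Other settings gave between 3058 and 3842 genes, except 2989 at an adjusted p below 0.05. The low counts of Prdm14 in WT libraries and of Nanos3 limit what these libraries can show of them.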

Other observations

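Kit lies between genes of related receptor tyrosine kinases on chromosome 5, Pdgfra 377 kb to one side and Kdr 276 kb to the other, and both had higher mean levels in KO EpiLCs. Kdr, the VEGF receptor of early mesoderm and endothelium, had counts of 6, 3 and 7 in the WT and 45, 23 and 31 in the KO libraries. Kdr passed the filter on low counts only through the KO libraries and so had to differ, and its fitted log2FC of 2.64 ± 0.45 SE is given as a description. Pdgfra, also a marker of primitive endoderm, had 1.74 CPM in WT and 3.43 CPM in KO EpiLCs on average, with log2FC 0.94 (edgeR adjusted p = 0.099), and it did not pass under DESeq2, under library totals or in 4 of the 6 fits that left out a library. The 45 genes tested within 5 Mb of Kit had a median log2FC of 0.11.

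Brme1, which encodes a partner of BRCA2 in meiotic recombination, is the nearest tested gene to Nanos3, 1.11 kb away. It fell from 19.2 to 12.6 CPM on average, with log2FC −0.60 ± 0.16 (SE, edgeR adjusted p = 0.010), while Nanos3 did not pass.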
